A study of Mus musculus with 105 samples.

Results

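The genes described here are the mouse axon guidance ligands and receptors: semaphorins of classes 3 to 7, plexins, neuropilins, ephrins, Eph receptors, Slits, Robos, netrins and Unc5 receptors. They were chosen by gene symbol. The rule found 68 genes, 35 ligands and 33 receptors. In the 2 tables that list 53656 gene symbols 67 of them were present, and all 68 were present in the 3 datasets that list 27179 Entrez identifiers, where Ntn3 was the addition. The families hold 20 semaphorins, 9 plexins, 2 neuropilins, 5 ephrin-A and 3 ephrin-B ligands, 9 EphA and 5 EphB receptors, 3 Slits, 4 Robos, 4 netrins and 4 Unc5 receptors.

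These proteins guide growing axons and, in many other tissues, decide which cells adhere, separate or form vessels. Semaphorins signal through plexins, and most secreted class 3 semaphorins also need a neuropilin as co-receptor. Ephrin-A ligands are held to the membrane by a lipid anchor and bind mainly EphA kinases, whereas ephrin-B ligands span the membrane and bind mainly EphB kinases; both sides of the contact can receive a signal. Slits repel axons through Robo receptors, and netrins attract through Dcc and repel through Unc5. Many such developmental genes are held at low levels in embryonic stem cells by PRC2, the Polycomb complex of EZH2, EED and SUZ12 that methylates histone H3, while RBBP5 is a core subunit of the complexes that place the H3 methyl mark typical of active promoters.

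Poly(A) RNA of mouse embryonic stem cell lines was sequenced in 5 datasets, with 93 libraries in 31 groups of 3 used here. The fusion panel, in E14TG2a cells without treatment, had 8 groups. These were wild-type cells, Suz12 knockout cells, and knockout cells given back SUZ12 (KO+WT), given S12N, or given S12N joined to SUV2 or SD2, each of these fusions in an active form and a form that the titles call dead. S12N is SUZ12 without its VEFS domain, per the labels, which do not spell out SUV2 and SD2. Another pair of E14TG2a datasets started from a line whose RBBP5 carries an FKBP tag (R), its Suz12 knockout (RS), and RS with a fusion. They are called the SUV2 degrader set and the SD2 degrader set after the fusion they hold. Each of these lines received DMSO or the degrader of the tagged RBBP5 (dTAG13 in the SUV2 set, dTAG-13 at 500 nM in the SD2 set) for 24 h. The degron dataset used a line labelled TCF with the genotype WT+SUZ12-mAID+OsTIR, in which auxin (IAA, 50 µM) triggers loss of SUZ12. Auxin was left on for 2, 4, 8, 24 or 48 h, and control cells had DMSO during 48 h. The HP1 set, in E14Tg2a cells without treatment, had wild-type cells, knockout cells, and knockout cells that carried SUZ12 in full length, S12N (there labelled dVEFS), or a fusion of S12N and the HP1a chromodomain. All libraries of the R and RS lines carry the tagged RBBP5, and all degron libraries carry the tagged SUZ12 and OsTIR. No line without the tag received the degrader or auxin. Loss of the tagged protein and other effects of these compounds therefore cannot be told apart. Each genotype is its own line, so genotype and line cannot be told apart. The labels give RS the same line name in both degrader sets, so a trait of that line would recur in both.

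Library totals ran from 5476658 to 29967549 counts. Several columns of the panel's table carry other names than its samples, and their match to groups is an inference from those names. Suz12 RNA, which checks the labels, was at 271.0, 291.0 and 319.3 CPM in the wild-type libraries of the panel and at 45.6, 55.7 and 66.7 CPM in its knockout, and it was lower in the knockout of every other dataset as well. CPM is the usual count scaled to library size, here by TMM. The degron acts on protein, and Suz12 RNA in it cannot check the labels. All 10 pluripotent stem cell markers were above 0 in every group. All 12 primitive endoderm markers rose in each of the 4 knockout comparisons and all 12 fell in both returns of SUZ12. Their summed level was 236.0 to 285.5 CPM in wild type, 1103.3 to 2053.4 in the knockout and 284.4 to 332.5 in KO+WT of the panel, and none was at 0 there. In the panel's knockout 1 of 4 tested neural progenitor markers rose and 2 fell, and 4 of 7 neuron markers rose and 2 fell. All 5 tested mesenchyme markers, 4 of 7 endothelium markers and 5 of 7 trophoblast markers rose there, and 1 trophoblast marker fell. Over all genes 23.8% rose and 23.2% fell. The summed trophoblast level overlapped, at 78.3 to 87.4 CPM in wild type and 76.7 to 102.6 in the knockout. Mesenchyme markers summed to 5.48 to 7.18 CPM in wild type and 31.4 to 41.4 in the knockout, and endothelium markers to 52.4 to 65.9 and 94.8 to 110.0. In bulk RNA, fewer cells of a type and less RNA per cell cannot be told apart. The part of these marker changes in the results below was not tested. Most comparisons below give the primitive endoderm markers alone, though other lists moved in some of them as well.

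Some libraries stood apart from their group. Replicate 3 of the 24 h auxin group differed from the other two by a root mean square of 0.74 and 0.91 on the log2 scale over genes, while those differed from each other by 0.36. Replicate 3 of R with the degrader in the SD2 set differed by 0.48 and 0.46, against 0.18 between the other two. The total counts of calls in single comparisons and the genes named by the rule that use these libraries are given with and without them. Medians, splits by direction, marker counts and counts over several comparisons are given only with them. The 24 h and 48 h auxin libraries also carried other library numbers in their headers and were shallower than the other degron libraries, so time and sequencing group cannot be told apart there. In the panel, wild type and knockout came from columns named for an Ebdiff experiment at day 0, with totals from 8799103 to 10694811, and the other 6 groups from columns without that name, with totals from 17041397 to 29967549. Library set and genotype therefore cannot be told apart wherever wild type or the knockout is compared with KO+WT or S12N in the panel.

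The promoter windows of 5 genes whose RNA moved alike in every knockout are shown to place the results on sequence. Each is the 250 bases before the RefSeq start in GRCm38.p6, read 5′ to 3′ on the gene's own strand, with each CG dinucleotide in capitals. Ephb4 and Sema4b were lower in every knockout, and Robo3, Nrp1 and Plxnd1 were higher. Ntn1 was lower in every knockout too but has no RefSeq window here. The risen genes were taken from those that fell in both returns of SUZ12, ranked by their smallest change over the knockouts. The RefSeq start lay 469 bases from the annotated gene start for Nrp1, 71 for Robo3 and 29 for Sema4b, each inside the gene. The Nrp1 window thus lies within the annotated gene.
Ephb4 (chr5:137349859-137350108, plus strand): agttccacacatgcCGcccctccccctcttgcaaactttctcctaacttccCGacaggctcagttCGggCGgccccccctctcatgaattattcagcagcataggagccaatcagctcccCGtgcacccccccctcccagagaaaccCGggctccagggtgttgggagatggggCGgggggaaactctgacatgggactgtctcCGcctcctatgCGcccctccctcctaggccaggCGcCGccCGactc
Sema4b (chr7:80186620-80186869, plus strand): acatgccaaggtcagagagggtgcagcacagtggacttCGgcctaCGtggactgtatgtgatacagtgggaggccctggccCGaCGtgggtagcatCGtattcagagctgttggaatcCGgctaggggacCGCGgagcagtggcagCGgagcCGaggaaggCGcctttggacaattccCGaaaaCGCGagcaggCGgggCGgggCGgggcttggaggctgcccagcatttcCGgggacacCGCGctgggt
Robo3 (chr9:37433176-37433425, minus strand): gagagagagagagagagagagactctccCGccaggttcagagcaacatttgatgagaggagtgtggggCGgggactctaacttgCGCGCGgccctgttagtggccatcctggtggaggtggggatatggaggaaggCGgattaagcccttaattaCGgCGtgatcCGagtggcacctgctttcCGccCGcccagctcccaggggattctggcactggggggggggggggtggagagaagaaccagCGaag
Nrp1 (chr8:128358823-128359072, plus strand): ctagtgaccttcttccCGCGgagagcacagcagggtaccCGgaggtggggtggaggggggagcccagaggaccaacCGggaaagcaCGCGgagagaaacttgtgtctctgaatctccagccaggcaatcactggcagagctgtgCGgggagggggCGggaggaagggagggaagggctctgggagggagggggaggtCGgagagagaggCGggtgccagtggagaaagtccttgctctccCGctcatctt
Plxnd1 (chr6:115995006-115995255, minus strand): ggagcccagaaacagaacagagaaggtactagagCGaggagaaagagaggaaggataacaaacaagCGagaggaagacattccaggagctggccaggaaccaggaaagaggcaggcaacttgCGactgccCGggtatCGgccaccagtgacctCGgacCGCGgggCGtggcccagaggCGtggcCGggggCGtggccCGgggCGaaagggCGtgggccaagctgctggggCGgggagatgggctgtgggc

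A RefSeq window was available for 59 of the 68 genes. Their C+G content ran from 40.8% to 84% with a median of 64.8%, and a median of 16 CG dinucleotides per window, against medians of 52.4% and 6 over all 32807 windows. The sets are unlike: each gene here has 1 window, the nearest to its annotated start, while all windows are every distinct RefSeq window. For Robo1, Sema3a and Sema4d the window lay 354843, 271370 and 37064 bases from that start. The letters TATAAA, on either strand, stood in 2 of the 59 windows (3.39%) and in 12.4% of all windows. The 10 windows of genes higher in all 4 knockouts ran from 49.6% to 78.4% C+G and from 2 to 39 CG, with medians of 64.4% and 14, and the 2 windows of genes lower in all 4 had 64% and 64.4% with 12 and 20 CG.

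Most of these genes were at low levels in the control cells. In the panel's wild type 29 of 67 reached 1 CPM per kb of exon and 6 reached 10, and in the other control groups 22 to 28 reached 1. Per kb, Epha2, an ephrin-A receptor, was highest in the panel's wild type at 55.4 ± 1.9 CPM (SD, n = 3). Sema4b, a membrane semaphorin, followed at 22.8 ± 1.65 and Ntn1, the secreted netrin-1, at 21.3 ± 3.46 CPM per kb, and their ranges overlapped. Ephb4, the ephrin-B2 receptor of veins, was at 13.9 ± 1.07, Plxna1, a plexin used with neuropilins, at 13.1 ± 0.351, and Plxnb2, a receptor of class 4 semaphorins, at 10.2 ± 0.819 CPM per kb. Ephb4 and Plxna1 did not separate beyond their spread, while Plxnb2 was below both. No counts were found in the panel's wild type for Epha3 and Unc5c. Enough counts for a test were found for 45 genes in every dataset, for 19 in some and for 4 (Epha3, Epha6, Sema3g and Unc5c) in none.

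The first question is what loss of SUZ12 did to these genes, and 4 comparisons of a knockout with its own control bear on it. RS carries the same line name in both degrader sets, so these are not 4 independent knockout lines. In the panel 24 of 62 tested genes rose and 9 fell, where 47.1% of all genes passed the test, 23.8% up and 23.2% down. In the SUV2 degrader set under DMSO 29 of 58 rose and 13 fell in RS against R (71.8%, 36.9% up and 34.9% down over all genes). In the SD2 degrader set 34 of 61 rose and 14 fell (59%, 31.8% up and 27.2% down), and in the HP1 set 27 of 57 rose and 3 fell (41.8%, 22.2% up and 19.6% down). The test was edgeR's quasi-likelihood F test with Benjamini-Hochberg adjustment over all genes of a comparison, with calls at an adjusted p under 0.05. The median log2 fold change of the tested genes was 0.39, 0.60, 0.43 and 0.55 in these comparisons, against -0.02, 0.01, 0.02 and 0.01 over all genes. The share called in either direction was 53.2%, 72.4%, 78.7% and 52.6%, next to the background in the SUV2 set and furthest above it in the SD2 set. Most calls were upward, while those over all genes were split nearly evenly. Genes with under 30 counts in the control group had little room to be called lower, and they made up 11 of the 24 rises in the panel, 8 of 29 in the SUV2 set, 9 of 34 in the SD2 set and 9 of 27 in the HP1 set, but none of the falls. The counts and medians are therefore a description of the genes that passed the filter on low counts.

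By family, semaphorins, the largest family with 20 genes, gave the most calls. In the panel 8 rose and 4 fell of 19, and in the SUV2 set 11 and 6 of 19. The SD2 set had 10 and 7 of 18, and the HP1 set 9 and 1 of 18. Over all genes 23.8% rose and 23.2% fell in the panel, and 36.9% and 34.9% in the SUV2 set. These shares were 31.8% and 27.2% in the SD2 set, and 22.2% and 19.6% in the HP1 set. Of the Robo receptors 3 of 4 rose in each of the first 3 datasets and 2 of 3 in the HP1 set. Receptors rose more often than they fell in all 4 comparisons, with 13 up and 2 down in the panel and 12 up and 1 down in the HP1 set. Ligands split 11 up to 7 down in the panel and 15 to 2 in the HP1 set.

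Of the 54 genes tested in all 4 knockout comparisons 13 rose in every one, where 12.4% of all 12091 genes did, and 3 fell in every one, where 9.55% of all genes did. These 16 were singled out after their values were seen. The 3 that fell were Ntn1, Sema4b and Ephb4. The 13 that rose were 6 receptors or co-receptors (Epha1, Nrp1, Plxna1, Plxnd1, Robo3 and Robo4), the receptor Unc5d and 6 semaphorins (Sema3c, Sema3f, Sema4c, Sema5b, Sema6d and Sema7a). For 6 of the 13 (Nrp1, Plxnd1, Robo3, Sema3c, Sema6d and Unc5d) at least 1 control group held under 30 counts, so the share of 12.4% is no measure of how they compare with other genes.

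Genes named by size of change were taken only from those whose groups did not overlap. Their lack of overlap is thus part of the choice and no further result. Netrin-1 showed the largest fall of the named genes in the panel. Ntn1 was at 109.2, 150.0 and 142.5 CPM in wild type and at 25.8, 37.9 and 28.3 CPM in the knockout of the panel. Every knockout library lay far below every wild-type library, with a log2 fold change of -2.13 ± 0.13 (SE, n = 3 per group; adjusted p = 8.26e-13). In the SUV2 set it was at 276.7, 259.2 and 278.7 CPM in R and 63.8, 65.7 and 64.2 in RS, a log2 fold change of -2.07 ± 0.03, adjusted p = 1.22e-31. The SD2-set values were 304.1, 293.7 and 287.5 CPM in R and 53.4, 54.3 and 52.9 in RS, a log2 fold change of -2.46 ± 0.10, adjusted p = 7.84e-13. The fall was smallest in the HP1 set, from 101.5, 103.0 and 109.2 CPM in wild type to 67.3, 73 and 63 in the knockout (-0.61 ± 0.07, adjusted p = 4.46e-09), again with no overlap.

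Sema4b and Ephb4 fell in all 4 datasets, and for both the fall was smallest in the HP1 set. Sema4b was at 142.6, 140.1 and 145.3 CPM in wild type and 92.3, 89.1 and 78.8 in the knockout of the HP1 set, and the groups did not overlap. Its log2 fold changes (± SE) were -1.07 ± 0.07 in the panel, -1.05 ± 0.03 in the SUV2 set, -1.43 ± 0.10 in the SD2 set and -0.71 ± 0.07 in the HP1 set. Ephb4 was at 62.8, 59.7 and 62.5 CPM in R and 19.8, 19.9 and 18.9 in RS of the SUV2 set (log2 fold change -1.66 ± 0.05, adjusted p = 1.68e-24). In the SD2 set it went from 69.7, 67.7 and 63.8 CPM to 22.1, 20.2 and 19 CPM (-1.71 ± 0.07, adjusted p = 1.11e-12). The HP1-set values were 62.3, 59.5 and 67.7 CPM in wild type and 36.2, 36.8 and 36.5 in the knockout (-0.79 ± 0.11, adjusted p = 4.04e-08). No knockout library reached a control library in any of these.

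Among the ligands that rose, Sema3f, a secreted semaphorin that acts through Nrp2, was at 1.21, 1.69 and 1.99 CPM in wild type and 7.16, 5.43 and 4.92 in the knockout of the panel (log2 fold change 1.84 ± 0.23, adjusted p = 3.51e-07). In the SUV2 set it went from 0.599, 0.568 and 0.595 CPM in R to 3.4, 3.87 and 3.91 in RS (2.66 ± 0.19, adjusted p = 5.15e-14). Sema5b, a membrane semaphorin with thrombospondin repeats, went from 8.61, 8.77 and 6.68 CPM to 23.8, 27.4 and 20.7 CPM in the panel (1.57 ± 0.12, adjusted p = 3.04e-11). In each case all knockout libraries lay above all control libraries. Sema7a, a lipid-anchored semaphorin that binds Plxnc1, was at 1.45, 1.76 and 1.46 CPM in R and 9.65, 8.8 and 8.65 in RS of the SUV2 set, a log2 fold change of 2.54 ± 0.13, adjusted p = 2.77e-17. Sema3c, a secreted semaphorin of the outflow tract, went from 0.624, 0.304 and 0.608 CPM to 2.54, 3.53 and 3.22 CPM in the SD2 set (log2 fold change 2.60 (95% counting interval 1.98 to 3.28), adjusted p = 2.31e-07). In the HP1 set it went from 0.525, 0.0971 and 0.795 CPM to 4.64, 2.3 and 3.77 CPM (log2 fold change 2.97 (95% counting interval 1.99 to 3.79), adjusted p = 2.28e-05). Where a group held under 30 counts, as here, the interval covers counting error only. Sema6d had 0 counts in the wild type of the HP1 set and was at 0.281, 1.07 and 1.98 CPM in the knockout, 33 counts in all. With the wild-type group set to 3 counts the knockout was 10.5-fold higher. This value leaves out counting error and spread in the knockout.

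Among the receptors, Plxnd1, the plexin that binds Sema3e, was at 1.88, 2.19 and 1.05 CPM in wild type and 3.72, 5.05 and 3.5 in the knockout of the panel, with a log2 fold change of 1.24 ± 0.24, adjusted p = 0.000121. Nrp1, a co-receptor of class 3 semaphorins and of VEGF, was at 0.6, 0 and 0.477 CPM in wild type and 2.81, 2.56 and 2.69 in the knockout of the HP1 set (log2 fold change 2.88 (95% counting interval 1.93 to 3.90), adjusted p = 0.00017). Epha1, an ephrin-A receptor, went from 2.56, 2.43 and 2.63 CPM in R to 19.4, 20.3 and 20.8 in RS of the SD2 set (2.99 ± 0.12, adjusted p = 1.45e-12). All 3 showed no overlap between groups in these datasets. Robo4, the Robo of blood vessels, had log2 fold changes of 1.02 ± 0.23, 1.82 ± 0.09, 0.85 ± 0.12 and 1.33 ± 0.22 in the panel, the SUV2, the SD2 and the HP1 set. Robo3, which controls midline crossing, was a low gene: its knockout and control groups held 32 against 7 counts in the panel and 42 against 1 in the HP1 set, so the panel's log2 fold change was 2.00 (95% counting interval 0.79 to 3.42). Epha1 shares 6.01% of its exon bases with Zyx, and Plxna1 shares 10.7% with Gm26811, both on the other strand. The counting is not stated to use strand, so reads from such pairs cannot be told apart.

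Sema6a, Nrp2 and Slit2 moved in opposite directions in different datasets. Sema6a, a membrane semaphorin that binds A-type plexins, was at 2.21, 3.59 and 2.93 CPM in wild type and 1.58, 0.776 and 0.852 in the knockout of the panel (log2 fold change -1.44 ± 0.38, adjusted p = 0.00293). It rose in the other 3 datasets, by 1.39 ± 0.18, 1.61 ± 0.24 and 2.35 (95% counting interval 1.36 to 3.22) in the SUV2, the SD2 and the HP1 set. Nrp2 went from 129.0, 128.0 and 135.7 CPM in R to 23.8, 26.7 and 28 in RS of the SUV2 set (-2.32 ± 0.05, adjusted p = 1.51e-28), and from 77.3, 79.6 and 70.6 to 16.8, 15.9 and 15.2 CPM in the SD2 set (-2.25 ± 0.07, adjusted p = 8.25e-14). Nrp2 rose in the HP1 set, with a log2 fold change of 0.61 ± 0.10, adjusted p = 1.43e-06. Slit2, a Robo ligand, went from 2.02, 1.75 and 1.59 CPM to 9.29, 11.5 and 13.6 CPM in the HP1 set (2.64 ± 0.29, adjusted p = 3.32e-10), and it fell in the panel (-0.84 ± 0.18) and in the SD2 set (-0.70 ± 0.16). No test across datasets was made of these differences in direction.

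Sema3e, the secreted ligand of Plxnd1, fell in the panel from 21.8, 24.7 and 25 CPM to 5.49, 8.15 and 8.61 CPM (-1.68 ± 0.15, adjusted p = 5.86e-10). It fell in the SUV2 set (-0.67 ± 0.10) and the SD2 set (-1.01 ± 0.11) as well, and its HP1-set value did not pass (0.24 ± 0.26, adjusted p = 0.49). Sema3d, another secreted semaphorin, was at 0.2, 0.31 and 0.0541 CPM in R and 2.43, 2.29 and 3.34 in RS of the SUV2 set (3.81 (95% counting interval 2.93 to 4.83), adjusted p = 2.38e-12). The SD2 set had it at 0.374, 0.0607 and 0.338 against 1.94, 2.31 and 2.07 CPM (3.05 (95% counting interval 2.19 to 4.05), adjusted p = 1.67e-06). It rose in the panel too (3.80 (95% counting interval 2.17 to 6.13)), and its HP1-set value did not pass (log2 fold change 1.32, adjusted p = 0.0785).

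**Figure D1:**
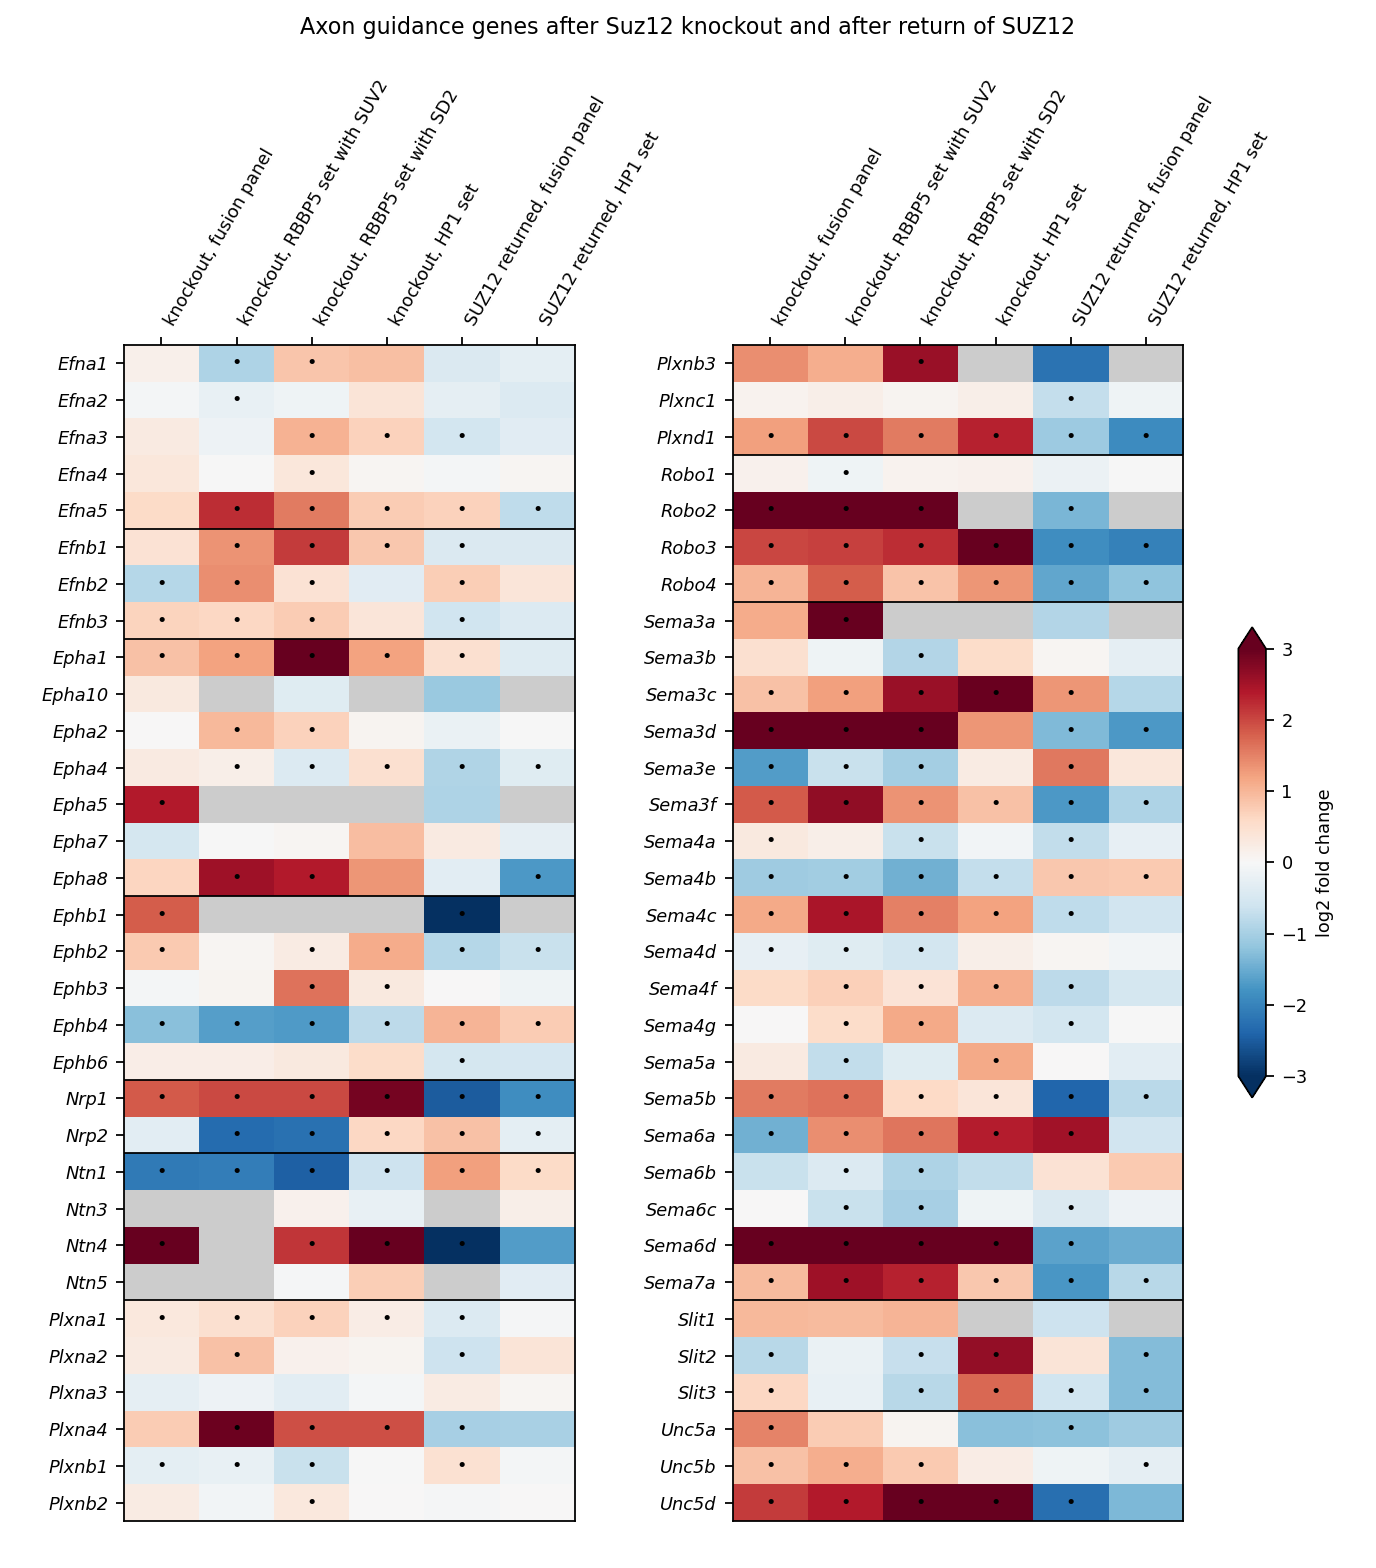
Log2 fold change (colour, from -3 to 3) of each tested axon guidance gene (rows, by family) in the 4 Suz12 knockout comparisons and the 2 comparisons of returned SUZ12 with the knockout (columns). A dot marks an adjusted p under 0.05, grey a gene not tested, and the columns of the knockouts hold more red than blue, with Ntn1, Sema4b and Ephb4 blue in all 4; strong colours of genes with few counts carry wide intervals.

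The next comparisons ask how far SUZ12 put back into the knockout moved these genes. In the panel 30 of 62 genes fell and 11 rose in KO+WT against the knockout (48.7% of all genes called, 24.4% up and 24.2% down), with a median log2 fold change of -0.53 against 0.02 over all genes. In the HP1 set 16 of 57 fell and 3 rose with full-length SUZ12 (26.4%, 12.3% up and 14.1% down over all genes), with a median of -0.35. Of the 24 genes that rose in the panel's knockout 20 fell on return (83.3%, against 80.5% of all genes that rose), Epha5 and Unc5b did not pass, and Epha1 and Sema3c rose further. Of the 9 that fell 7 rose on return (77.8%, against 75% of all genes), and Sema4d and Slit2 did not pass. These comparisons share the knockout libraries with the ones above. In the HP1 set 13 of the 27 genes that had risen fell (48.1%, against 50.2% of all genes), and all 3 that had fallen (Ephb4, Ntn1 and Sema4b) rose, against 48.6% of all genes. The shares of risen genes that fell again are thus near the background in both datasets.

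In the panel 3 semaphorins were at low levels in KO+WT, where library set and genotype cannot be told apart. Sema5b was at 4.44, 4.99 and 4.36 CPM in KO+WT, below all knockout libraries, with a log2 fold change of -2.38 ± 0.11, adjusted p = 3.13e-15. Sema7a was at 2.62, 2.78 and 4.11 CPM in KO+WT against 13.3, 8.93 and 10 in the knockout (-1.75 ± 0.19, adjusted p = 3.19e-08). Sema3f was at 1.93, 1.82 and 1.58 CPM in KO+WT, within the span of wild type (-1.72 ± 0.19, adjusted p = 5.03e-08 against the knockout). Sema6a and Sema3e moved the other way: Sema6a was at 7.92, 6.81 and 3.98 CPM in KO+WT (2.53 ± 0.32, adjusted p = 4.69e-07) and Sema3e at 23.7, 25.2 and 17.7 (1.58 ± 0.14, adjusted p = 6.99e-10). All KO+WT libraries lay above all knockout libraries for both.

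Sema4b, Ephb4 and Ntn1 rose with full-length SUZ12 in the HP1 set. Sema4b was at 142.9, 150.4 and 159.6 CPM (0.79 ± 0.07, adjusted p = 1.48e-12 against the knockout), Ephb4 at 60.7, 66.5 and 59.1 (0.77 ± 0.10, adjusted p = 1.05e-07) and Ntn1 at 101.3, 103.5 and 100.6 (0.57 ± 0.07, adjusted p = 3.06e-08). Each full-length library was above each knockout library. Robo3 was at 0.509, 0.326 and 0.259 CPM with full-length SUZ12 and 2.25, 0.748 and 2.15 in the knockout (log2 fold change -2.02 (95% counting interval -2.62 to -0.87), adjusted p = 0.0341). Plxnd1 was at 1.25, 1.22 and 0.907 against 6.19, 4.38 and 1.98 CPM in the same groups (-1.88 ± 0.40, adjusted p = 0.000284), and Nrp1 at 1.02, 0.326 and 0.778 against 2.81, 2.56 and 2.69 CPM (-1.87 ± 0.53, adjusted p = 0.00605). The knockout libraries of Robo3 and Plxnd1 were widely spread, yet none reached down to the full-length libraries. The Robo3 call was lost on leaving out any full-length library or replicate 1 or 3 of the knockout (adjusted p = 0.0654 to 0.146).

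Against wild type itself, 7 genes were higher and 8 lower in the panel's KO+WT (10.4% of all genes called, 5.67% up and 4.73% down), and 8 higher and 3 lower with full-length SUZ12 in the HP1 set (19.1%, 11% up and 8.13% down). Sema3c was at 4.76, 5.29 and 3.12 CPM in KO+WT and 0.552, 1.3 and 0.937 in wild type (log2 fold change 2.22 (95% counting interval 1.63 to 2.85), adjusted p = 3.81e-06). Epha1 was at 16.4, 18 and 11.1 against 5.52, 4.28 and 8.08 CPM (1.36 ± 0.20, adjusted p = 5.05e-05), and Efna5, a lipid-anchored ephrin, at 5.62, 5.38 and 2.48 against 1.77, 1.59 and 2.23 CPM (1.27 ± 0.27, adjusted p = 0.00229). All 3 stayed above wild type in every KO+WT library. Ntn1 in KO+WT, at 80.7, 74.6 and 60.1 CPM, lay between the knockout and wild type without touching either (-0.90 ± 0.12, adjusted p = 6.75e-06 against wild type). Sema5b and Sema7a were below wild type in KO+WT, with log2 fold changes of -0.81 ± 0.13, adjusted p = 0.000133 and -0.81 ± 0.22, adjusted p = 0.0159. The Sema7a call was lost without replicate 1 or 2 of KO+WT or replicate 1 of wild type (adjusted p = 0.0665 to 0.153).

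In the HP1 set Sema3c and Epha1 were again above wild type with SUZ12 returned. Suz12 RNA was at 163.8, 169.6 and 172.3 CPM with full-length SUZ12 and 285.0, 292.2 and 309.6 in wild type, and its part was not tested. Sema3c was at 1.53, 2.36 and 1.94 CPM with full-length SUZ12 (2.12 (95% counting interval 1.23 to 3.06), adjusted p = 0.00573 against wild type) and Epha1 at 11.6, 10.7 and 12.4 CPM against 7.05, 5.73 and 6.52 in wild type (0.84 ± 0.17, adjusted p = 0.000315). Slit2 was at 5.55, 2.85 and 5.57 CPM, between wild type and knockout (1.35 ± 0.31, adjusted p = 0.00117). Unc5a, a repulsive netrin receptor, was at 0.648, 0.244 and 0.13 CPM with full-length SUZ12 and 2.4, 1.26 and 2.39 in wild type (log2 fold change -2.33 (95% counting interval -3.06 to -1.43), adjusted p = 0.00586). Sema5b (-0.46 ± 0.11, adjusted p = 0.00234) and Sema4a, a membrane semaphorin (-0.34 ± 0.11, adjusted p = 0.0262), were lower than in wild type. The Sema4a call was lost without replicate 1 or 2 of the full-length group or replicate 2 of wild type (adjusted p = 0.0937 to 0.214), and that of Sema3c without replicate 2 of wild type (0.0587). The count of 11 became 7 without replicate 1 of the full-length group. Of the 12 primitive endoderm markers 11 were above wild type there as well, with a summed level of 843.1 to 900.7 CPM against 382.7 to 399.1 in wild type and none at 0, and their part was not tested.

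**Figure D2:**
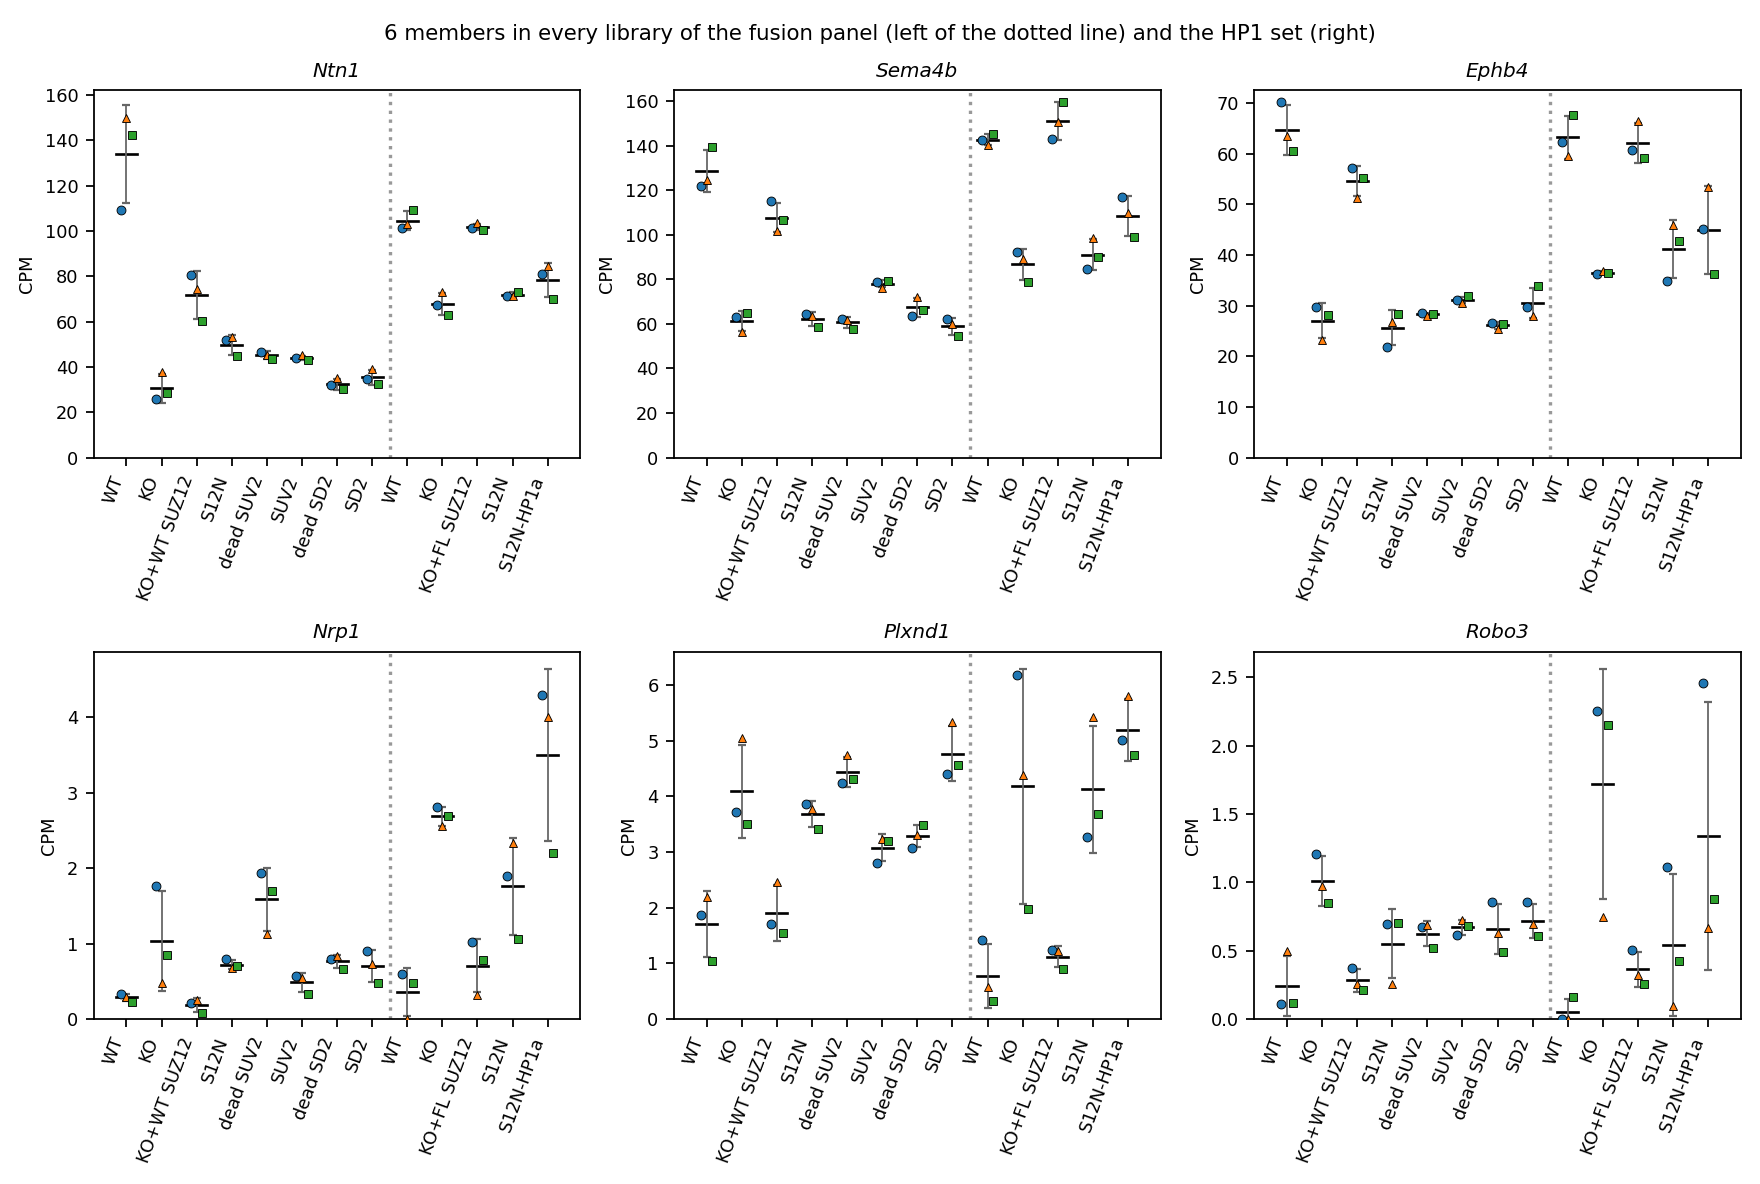
CPM (vertical axis, linear, from 0) of Ntn1, Sema4b, Ephb4, Nrp1, Plxnd1 and Robo3 in every library of the fusion panel (left of the dotted line) and the HP1 set (right), where circle, triangle and square are replicates 1, 2 and 3, the line is the mean and the whisker the SD. In both sets Ntn1, Sema4b and Ephb4 are highest in wild type and with SUZ12 returned, and Nrp1, Plxnd1 and Robo3 are lower there than in the knockout; the axes are not per length.

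Few genes differed between S12N and the knockout. In the panel Ntn1 rose and Unc5b fell in S12N against the knockout (3.81% of all genes called, 1.9% up and 1.92% down). Under an unadjusted p of 0.05 stood 16 of the 62 tested genes. No share of all genes was taken at that threshold, so this count cannot be set against the 3.81%. Ntn1 was at 51.7, 53.1 and 44.8 CPM in S12N and 25.8, 37.9 and 28.3 in the knockout, without overlap (0.70 ± 0.13, adjusted p = 0.00232). Unc5b, a netrin receptor, was at 29.2, 29.8 and 29.5 against 40.3, 32.9 and 43.9 CPM (-0.40 ± 0.10, adjusted p = 0.0266), and with only these 2 groups in the fit its adjusted p was 0.122. Its call was also lost without replicate 1 or 3 of either group (adjusted p = 0.0573 to 0.171). The count of 2 became 5 without replicate 2 of S12N. In the HP1 set 9 genes were under an unadjusted p of 0.05, again without a share of all genes at that threshold, and 2 were called. Slit3, a Robo ligand, was at 14.8, 17 and 16.7 CPM in S12N and 10.1, 11.2 and 10.1 in the knockout (0.60 ± 0.17, adjusted p = 0.0425; 1.89% of all genes called, 0.77% up and 1.12% down). Sema3e was at 3.32, 3.88 and 3.53 against 8.73, 6.36 and 5.93 CPM (-0.97 ± 0.27, adjusted p = 0.0412). Both calls were lost on leaving out any one of the 6 libraries.

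The SUV2 fusion was compared with its dead version, which shares S12N and the knockout background. Suz12 RNA was at 169.4, 175.4 and 198.0 CPM with the active and 269.7, 222.2 and 220.5 with the dead fusion, and its part was not tested. Of 62 genes 17 fell and 7 rose (22.6% of all genes called, 9.82% up and 12.8% down). Nrp1 was at 0.571, 0.552 and 0.339 CPM with the active and 1.94, 1.13 and 1.7 with the dead fusion (-1.68 ± 0.31, adjusted p = 0.000295). Efna1, a lipid-anchored ephrin, was at 0.734, 0.586 and 0.436 against 1.98, 1.56 and 1.62 CPM (-1.54 ± 0.32, adjusted p = 0.000936). Slit2 was at 5.42, 5.59 and 4.6 against 9.77, 8.93 and 11.4 CPM (-0.94 ± 0.17, adjusted p = 0.000169). Active and dead libraries did not overlap for any of these, and the active fusion was the lower one. Sema3d, at 2.28, 3.62 and 3.05 against 2.05, 1.78 and 1.88 CPM, was higher with the active fusion (0.65 ± 0.22, adjusted p = 0.0332, but adjusted p = 0.0644 by DESeq2). So were Sema3e, at 12.4, 10.3 and 12.2 against 7.98, 7.3 and 8.01 CPM (0.58 ± 0.13, adjusted p = 0.00148), and Plxnc1, the Sema7a receptor, at 8.16, 7.52 and 8 against 6.45, 5.41 and 5.65 CPM (0.43 ± 0.14, adjusted p = 0.0242). The Sema3d call was lost without replicate 2 or 3 of the active or any library of the dead fusion (adjusted p = 0.0587 to 0.21). That of Plxnc1 was lost without replicate 1 or 3 of the active or replicate 2 or 3 of the dead fusion (0.0689 to 0.108). Of 12 primitive endoderm markers 11 fell in the same comparison, with a summed level of 536.2 to 603.7 CPM in the active and 1579.5 to 2095.7 in the dead line and none at 0, and their part was not tested. Summed neuron markers were also lower with the active fusion (239.3 to 247.6 against 480.4 to 488.4 CPM, Dcx at 0 in both). So were mesenchyme (18.6 to 20.2 against 28.4 to 31.6) and endothelium markers (87.6 to 90.8 against 99 to 103.7). Trophoblast markers were higher (104.6 to 112.7 against 98.1 to 101.9), and neural progenitor markers overlapped. The part of these lists was not tested either.

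The dead SUV2 fusion itself differed from S12N, with 15 genes higher and 2 lower (21% of all genes called, 12% up and 9.05% down). Nrp1 was at 1.94, 1.13 and 1.7 CPM with the dead fusion and 0.792, 0.674 and 0.701 with S12N (1.13 ± 0.30, adjusted p = 0.00917). Sema3d was at 2.05, 1.78 and 1.88 against 0.838, 1.04 and 1.21 CPM (0.89 ± 0.26, adjusted p = 0.0161), and Efnb2, a membrane ephrin that binds Ephb4, at 16.4, 14.3 and 14.5 against 9.41, 8.86 and 8.64 CPM (0.75 ± 0.13, adjusted p = 0.000228). Sema3b, a secreted semaphorin, was lower at 2.65, 3.67 and 2.77 against 4.52, 4.3 and 5.32 CPM (-0.64 ± 0.20, adjusted p = 0.0256), as was Sema6c, a membrane semaphorin (-0.31 ± 0.08, adjusted p = 0.00763). No groups overlapped for these 5 genes. Calls were lost for Nrp1 and Sema3d without replicate 1 of the dead fusion (adjusted p = 0.0567 and 0.0601), for Sema3d without replicate 1 of S12N (0.0813) and for Sema6c without replicate 3 of S12N (0.063). Sema3b lost its call without replicate 1 or 3 of the dead fusion or replicate 3 of S12N (0.093 to 0.11). All 12 primitive endoderm markers rose here too, and their summed level in S12N was 674.6 to 1279.8 CPM. The 17 calls became 6 without replicate 1 of the dead fusion, and 10 without replicate 1 or replicate 3 of S12N.

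Against the dead SD2 fusion the active one had 6 genes higher and 8 lower of 62 (18% of all genes called, 8% up and 10% down). Suz12 RNA was at 118.7, 120.9 and 101.7 CPM with the active and 198.6, 255.8 and 211.7 with the dead fusion, and its part was not tested. Epha1 was at 4.09, 5.72 and 4.05 CPM with the active and 10.3, 9.54 and 11.7 with the dead fusion (-1.18 ± 0.19, adjusted p = 8.1e-05). Plxna4, a plexin used with neuropilins, was at 0.405, 0.997 and 0.652 against 1.66, 1.42 and 1.34 CPM (-1.09 ± 0.28, adjusted p = 0.00768), and Sema3d at 0.855, 0.78 and 0.696 against 1.66, 1.42 and 1.12 CPM (-0.84 ± 0.29, adjusted p = 0.0447). Each was lower in every active library. Higher in every active library were Ephb6, a kinase-dead Eph receptor, at 4.27, 4.81 and 5.31 against 2.46, 2.59 and 3.84 CPM (0.69 ± 0.18, adjusted p = 0.0106), Sema4g, a membrane semaphorin (0.63 ± 0.16, adjusted p = 0.00698), and Sema3f, at 6.66, 7.54 and 6.96 against 4.8, 4.6 and 4.96 CPM (0.56 ± 0.15, adjusted p = 0.0125). The Sema3d call was lost by DESeq2 (adjusted p = 0.0568), without a filter (0.0675), with only these groups in the fit (0.0512) and without any one library but replicate 3 of the dead fusion (0.0845 to 0.146). Ephb6 lost its call without replicate 3 of the active or replicate 1 or 2 of the dead fusion (0.0551 to 0.067). Plxna4 did so without replicate 1 of the active fusion (0.0658), Sema4g without replicate 1 of the dead one (0.0525) and Sema3f without its replicate 2 (0.0541). The count of 14 became 8 and 7 without replicates 1 and 3 of the active fusion, and 8 and 6 without replicates 1 and 2 of the dead one. The primitive endoderm markers gave 2 of 12 lower here and none higher.

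The dead SD2 fusion against S12N gave 3 genes higher and 4 lower (13.1% of all genes called, 6.97% up and 6.11% down). Ntn1 was at 32, 35.1 and 30.3 CPM with the dead fusion and 51.7, 53.1 and 44.8 with S12N, close to the knockout (-0.62 ± 0.12, adjusted p = 0.00128). Sema3e was at 7.25, 7.99 and 8.13 against 5.45, 5.39 and 5.09 CPM (0.56 ± 0.14, adjusted p = 0.0105). Unc5d (0.89 ± 0.28, adjusted p = 0.0384), Epha2 (0.29 ± 0.09, adjusted p = 0.0266), Sema4g (-0.59 ± 0.16, adjusted p = 0.0149) and Sema5b (-0.32 ± 0.09, adjusted p = 0.0171) also passed, but with only these groups in the fit their adjusted p values were 0.135, 0.0975, 0.126 and 0.0614, and each lost its call without 2 or more single libraries (adjusted p = 0.0592 to 0.171). Only 2 genes passed when the fit held these 2 groups alone, and 3 or 4 when replicate 1 or 3 of the dead fusion or replicate 3 of S12N was left out.

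The difference between the active-against-dead effects of SUV2 and SD2 was tested in 1 model. It passed for 24 of 62 genes, 8 toward higher and 16 toward lower with SUV2 (23% of all genes called, 11.5% up and 11.6% down). Efna1 was at 1.75, 1.95 and 2.74 CPM with the active and 1.83, 1.71 and 1.61 with the dead SD2 fusion, which overlapped, and its difference of effects was -1.87 ± 0.43, adjusted p = 0.00233 on the log2 scale. Sema6b, a membrane semaphorin, was at 0.816, 1.24 and 0.679 CPM with active and 1.6, 1.89 and 1.77 with dead SUV2, and at 2.83, 3.12 and 2.87 against 1.77, 2.22 and 1.74 CPM with active and dead SD2. The pairs moved in opposite directions, a difference of -1.53 ± 0.40, adjusted p = 0.00645. Epha1 was at 13.4, 14.4 and 12.8 against 14.5, 13.4 and 13.2 CPM with active and dead SUV2, which overlapped, against the fall with SD2 (1.17 ± 0.25, adjusted p = 0.00115). Sema3d rose with SUV2 and fell with SD2, a difference of 1.49 ± 0.36, adjusted p = 0.00404. Of 12 primitive endoderm markers 9 were lower and none higher in the same difference of effects, and their part was not tested.

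**Figure D3:**
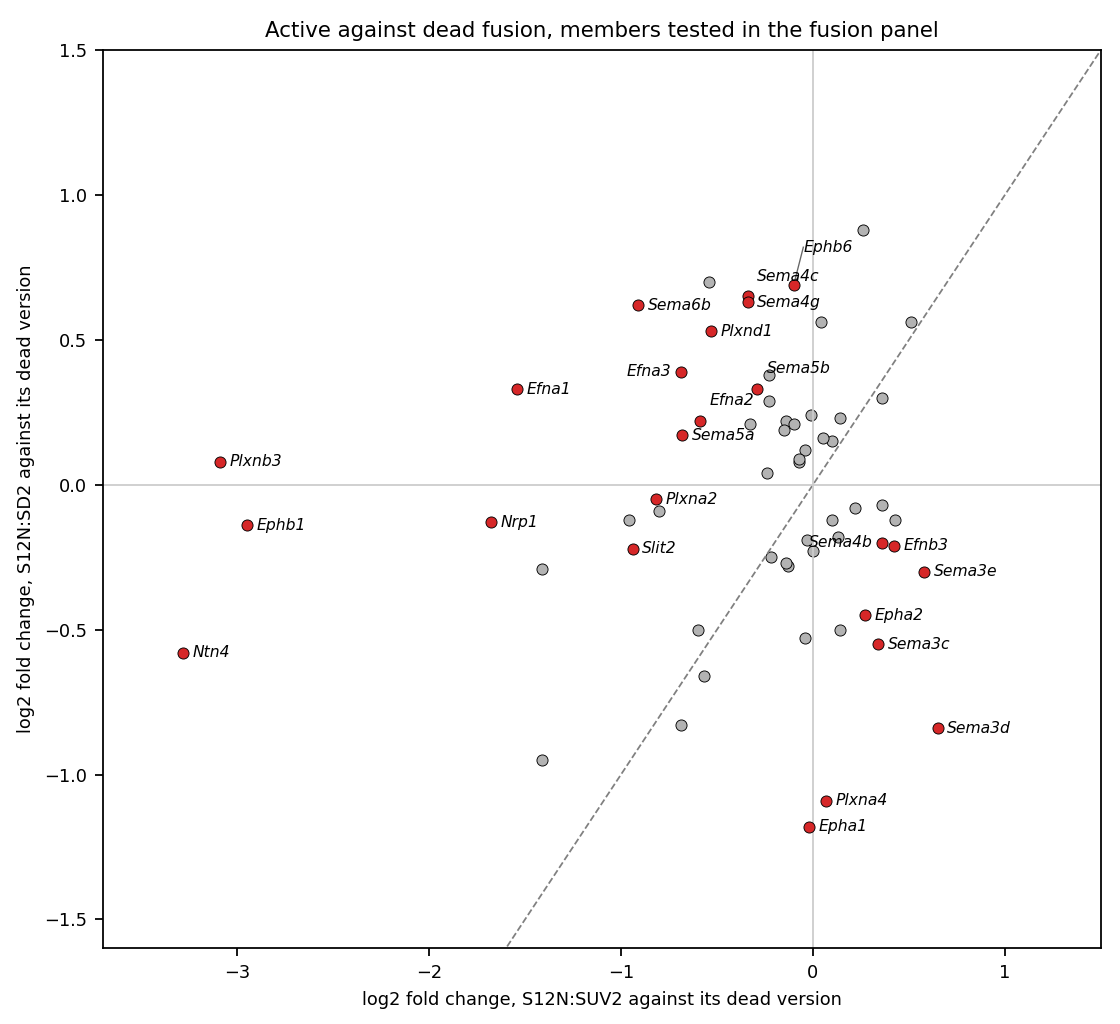
Log2 fold change of the active against the dead fusion for the tested axon guidance genes, S12N:SUV2 on the horizontal and S12N:SD2 on the vertical axis (the axes differ in scale). Red points with names passed the test of the difference between both effects at an adjusted p under 0.05, and the dashed line marks equal effects; Epha1, Plxna4 and Sema3d lie below it, Efna1 and Sema6b above it, and Ntn4, Plxnb3 and Ephb1 rest on few counts.

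The active SUV2 fusion and wild-type SUZ12 in the same knockout gave different levels for many genes: 20 were higher and 15 lower with SUV2 (48.4% of all genes called, 24% up and 24.3% down). Sema5b was at 19.2, 20.9 and 19.2 CPM with SUV2 against 4.44, 4.99 and 4.36 in KO+WT (2.10 ± 0.11, adjusted p = 1.71e-14). Sema3d (2.31 ± 0.27, adjusted p = 1.24e-07) and Plxna4 (log2 fold change 2.11 (95% counting interval 1.52 to 2.76), adjusted p = 1.44e-06) were higher as well. Sema6a was at 0.897, 0.69 and 0.63 CPM with SUV2 (-3.06 ± 0.29, adjusted p = 3.39e-09), Sema6b was lower than its 2.99, 4.99 and 3.34 CPM in KO+WT (-2.02 ± 0.28, adjusted p = 1.33e-06) and Slit2 lower than its 12.1, 13 and 9.11 CPM (-1.12 ± 0.17, adjusted p = 4.88e-06). The SUV2 libraries stood apart from all KO+WT libraries for each. Of 12 primitive endoderm markers 9 were higher with SUV2, with a summed level of 536.2 to 603.7 CPM against 284.4 to 332.5 in KO+WT and none at 0, and their part was not tested.

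The fusions were also placed in the RS line. Under DMSO, 28 of 58 genes fell and 11 rose in RS with S12N:SUV2 against RS (48.7% of all genes called, 23.3% up and 25.4% down). Nrp1 was at 0.59, 0.315 and 0.334 CPM with the fusion and 1.65, 1.85 and 1.77 in RS (log2 fold change -2.10 (95% counting interval -2.80 to -1.46), adjusted p = 9.29e-08). Efnb1, a membrane ephrin, was at 3.22, 2.47 and 2.86 against 9.74, 9.28 and 9.02 CPM (-1.72 ± 0.13, adjusted p = 2.87e-12), and Slit2 at 2.09, 2.52 and 3.2 against 8.13, 6.51 and 8.24 CPM (-1.53 ± 0.14, adjusted p = 1.02e-10). Nrp1 with the fusion was at the level of R, which was 0.599, 0.258 and 0.487 CPM. Ntn1 rose to 99.4, 101.6 and 104.1 CPM (0.66 ± 0.03, adjusted p = 1.54e-16), Nrp2 to 40.1, 40.4 and 39.1 CPM (0.61 ± 0.05, adjusted p = 7.82e-11) and Plxnc1 to 3.43, 3.62 and 3.15 CPM from 1.79, 2.42 and 2.19 (0.67 ± 0.15, adjusted p = 0.00037). Ntn1 and Nrp2 stayed well below every R library. The summed primitive endoderm markers were at 172.2 to 193.5 CPM in R, 1659.3 to 1819.7 in RS and 413.5 to 456.5 with the fusion, none at 0, and their part was not tested.

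With S12N:SD2 in RS, 17 of 61 genes fell and 13 rose under DMSO (28% of all genes called, 13% up and 14.9% down). Efnb1 was at 6.1, 4.67 and 4.77 CPM with the fusion and 16.9, 18.5 and 18.4 in RS (-1.79 ± 0.13, adjusted p = 1.86e-08). Nrp1 was at 1.14, 2.37 and 0.89 against 4.64, 5.72 and 5.06 CPM (-1.79 ± 0.26, adjusted p = 3.81e-05), and Sema6a at 2.34, 2.08 and 1.02 against 6.1, 4.93 and 3.85 CPM (-1.44 ± 0.23, adjusted p = 0.000136). The fusion libraries were lower throughout. Slit2 was higher, at 7.64, 8.11 and 8.01 against 3.4, 3.96 and 3.34 CPM (1.16 ± 0.16, adjusted p = 2.01e-05), as were Plxna2, at 8.56, 9.18 and 9.41 against 2.7, 4.75 and 5.18 (1.11 ± 0.20, adjusted p = 0.000301), and Epha10, an Eph receptor without kinase activity (1.24 ± 0.33, adjusted p = 0.00886). Slit2 thus fell with SUV2 and rose with SD2 in RS, in separate datasets whose difference was not tested. The Epha10 call was lost without replicate 1 of RS (adjusted p = 0.0553). The summed primitive endoderm markers were at 221.1 to 238.9 CPM in R, 6256.0 to 6592.3 in RS and 946.4 to 965.1 with the fusion, none at 0, and their part was not tested.

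With the RBBP5 degrader for 24 h these genes moved in both directions. In R 18 of 58 rose and 18 fell in the SUV2 set (51.6% of all genes called, 25.4% up and 26.2% down), and 11 of 61 rose and 17 fell in the SD2 set (41.8%, 21.6% up and 20.2% down; 30 calls in all without replicate 3 of the degrader group, and 18 with only these 2 groups in the fit). In RS 13 rose and 19 fell in the SUV2 set (48.3%, 23.2% up and 25.1% down) and 11 rose and 18 fell in the SD2 set (38.2%, 15.9% up and 22.3% down). With the fusions 12 rose and 21 fell (SUV2, 52.8%, 25.9% up and 27% down) and 5 rose and 24 fell (SD2, 41.5%, 18.5% up and 22.9% down). Median log2 fold changes lay between -0.17 and 0.07 in the 6 comparisons. Of 12 primitive endoderm markers 6 rose and 1 fell in R of the SD2 set, and 1 to 3 rose and none to 3 fell in the other 5 comparisons.

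Of the 57 genes tested in all 6 degrader comparisons 1 rose in every one (6.16% of all 12695 genes did) and 7 fell in every one (9.26% did); these 8 were singled out after their values were seen. The gene that rose was Epha7, an ephrin-A receptor. In R of the SUV2 set it was at 8.28, 7.82 and 7.46 CPM with the degrader and 3.24, 3.2 and 3.51 with DMSO (1.24 ± 0.12, adjusted p = 5.55e-10). In R of the SD2 set it was at 8.19, 6.85 and 8.23 against 3.56, 2 and 3.44 CPM (1.37 ± 0.17, adjusted p = 9.06e-06; 1.34 without replicate 3). No degrader library overlapped a DMSO library. Its log2 fold change in RS was 0.94 ± 0.13 in the SUV2 set and 0.67 ± 0.18 in the SD2 set, and with the fusions 1.41 ± 0.14 and 0.71 ± 0.17.

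The 7 that fell in all 6 were the ephrin Efna2, the receptors Ephb2 and Ephb4, and the semaphorins Sema3f, Sema4a, Sema4d and Sema6c. Sema6c was at 8.13, 7.87 and 9.11 CPM with the degrader and 16.2, 15.5 and 16.3 with DMSO in R of the SUV2 set (-0.94 ± 0.08, adjusted p = 6.86e-11). In R of the SD2 set it was at 3.77, 4.4 and 4.61 against 10.7, 11.2 and 10.6 CPM (-1.36 ± 0.11, adjusted p = 8.41e-08; -1.41 without replicate 3 of the degrader group). Sema6c libraries with the degrader lay far below those with DMSO. Its log2 fold change was -1.34 ± 0.10 with SUV2, -1.19 ± 0.13 in RS of the SD2 set and -1.28 ± 0.11 with SD2. In RS of the SUV2 set it passed as well, but the rule did not name it there. Sema4a was at 6.19, 8.28 and 7.48 CPM with the degrader and 14.8, 13.6 and 12.5 with DMSO in RS of the SUV2 set (-0.90 ± 0.09, adjusted p = 9.02e-10). Efna2 was at 4.24, 4.07 and 5.63 against 11.2, 12.1 and 11 CPM in RS of the SD2 set (-1.30 ± 0.13, adjusted p = 4.94e-07). Sema3f was at 1.48, 1.59 and 1.42 against 3.59, 3.04 and 3.01 CPM with SUV2 (-1.10 ± 0.16, adjusted p = 5.66e-07). Ephb4, abundant in these cells, fell by less, with log2 fold changes from -0.48 in R to -0.24 in RS of the SD2 set.

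Other genes are given for the lines in which the rule named them, and their differences between lines were tested only where stated further on. Values without replicate 3 of the R degrader group of the SD2 set follow those with it. Nrp1 rose in R, from 0.599, 0.258 and 0.487 to 1.8, 1.62 and 1.6 CPM in the SUV2 set (log2 fold change 1.90 (95% counting interval 1.26 to 2.58), adjusted p = 5.25e-07) and from 1.81, 1.15 and 0.946 to 2.66, 4.25 and 3.21 CPM in the SD2 set (1.36 ± 0.30, adjusted p = 0.00159; 1.39). Efnb2 rose in R of the SUV2 set from 9.03, 9.55 and 8.22 to 15.7, 16.5 and 16.5 CPM (0.86 ± 0.08, adjusted p = 7.19e-11), and Efnb1 in R of the SD2 set from 3.12, 4.43 and 5 to 7.86, 6.56 and 8.83 CPM (0.88 ± 0.16, adjusted p = 0.000313; 0.80). Epha1 fell in R of the SD2 set from 2.56, 2.43 and 2.63 to 0.91, 1.15 and 0.803 CPM (-1.39 ± 0.21, adjusted p = 6.55e-05; -1.31). All of these were without overlap. Sema3b fell in R of the SUV2 set (-0.82 ± 0.20, adjusted p = 0.00113). Epha8, an ephrin-A receptor, fell in RS from 3.81, 3.87 and 4.38 to 1.39, 2.03 and 1.84 CPM in the SUV2 set (-1.19 ± 0.17, adjusted p = 9.16e-07) and from 4.21, 5.11 and 4.54 to 1.29, 0.884 and 1.64 CPM in the SD2 set (-1.87 ± 0.27, adjusted p = 4.51e-05). With the fusions its log2 fold change was -2.09 ± 0.22 (SUV2) and -1.43 ± 0.23 (SD2).

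In RS of the SUV2 set Plxnc1 rose from 1.79, 2.42 and 2.19 to 4.51, 4.41 and 4.29 CPM (1.04 ± 0.14, adjusted p = 2.47e-07) and Slit3 fell from 3.67, 3.03 and 3.02 to 1.49, 2.08 and 1.36 CPM (-0.99 ± 0.17, adjusted p = 1.11e-05). Efna5 rose there (0.55 ± 0.14, adjusted p = 0.00148) and with SUV2 (0.53 ± 0.14, adjusted p = 0.00236). In RS of the SD2 set Sema6d, a membrane semaphorin, rose from 1.35, 1.52 and 1.96 to 5.1, 6.13 and 5.75 CPM (1.82 ± 0.21, adjusted p = 4.25e-06), and Efna1 rose (0.59 ± 0.18, adjusted p = 0.0131; adjusted p = 0.0626 without replicate 1 of RS with DMSO). No overlap of degrader and DMSO libraries was seen for these genes. With SD2, Slit1, a Robo ligand, rose from 1.03, 0.845 and 0.954 to 1.98, 1.93 and 1.7 CPM (0.99 ± 0.24, adjusted p = 0.00301) and Sema3c fell from 3.88, 2.99 and 3.63 to 0.989, 1.33 and 1.29 CPM (-1.54 ± 0.22, adjusted p = 3.14e-05). Efna3, a lipid-anchored ephrin, rose with SUV2 (0.64 ± 0.11, adjusted p = 9.05e-06) and with SD2 (0.73 ± 0.16, adjusted p = 0.00157).

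**Figure D4:**
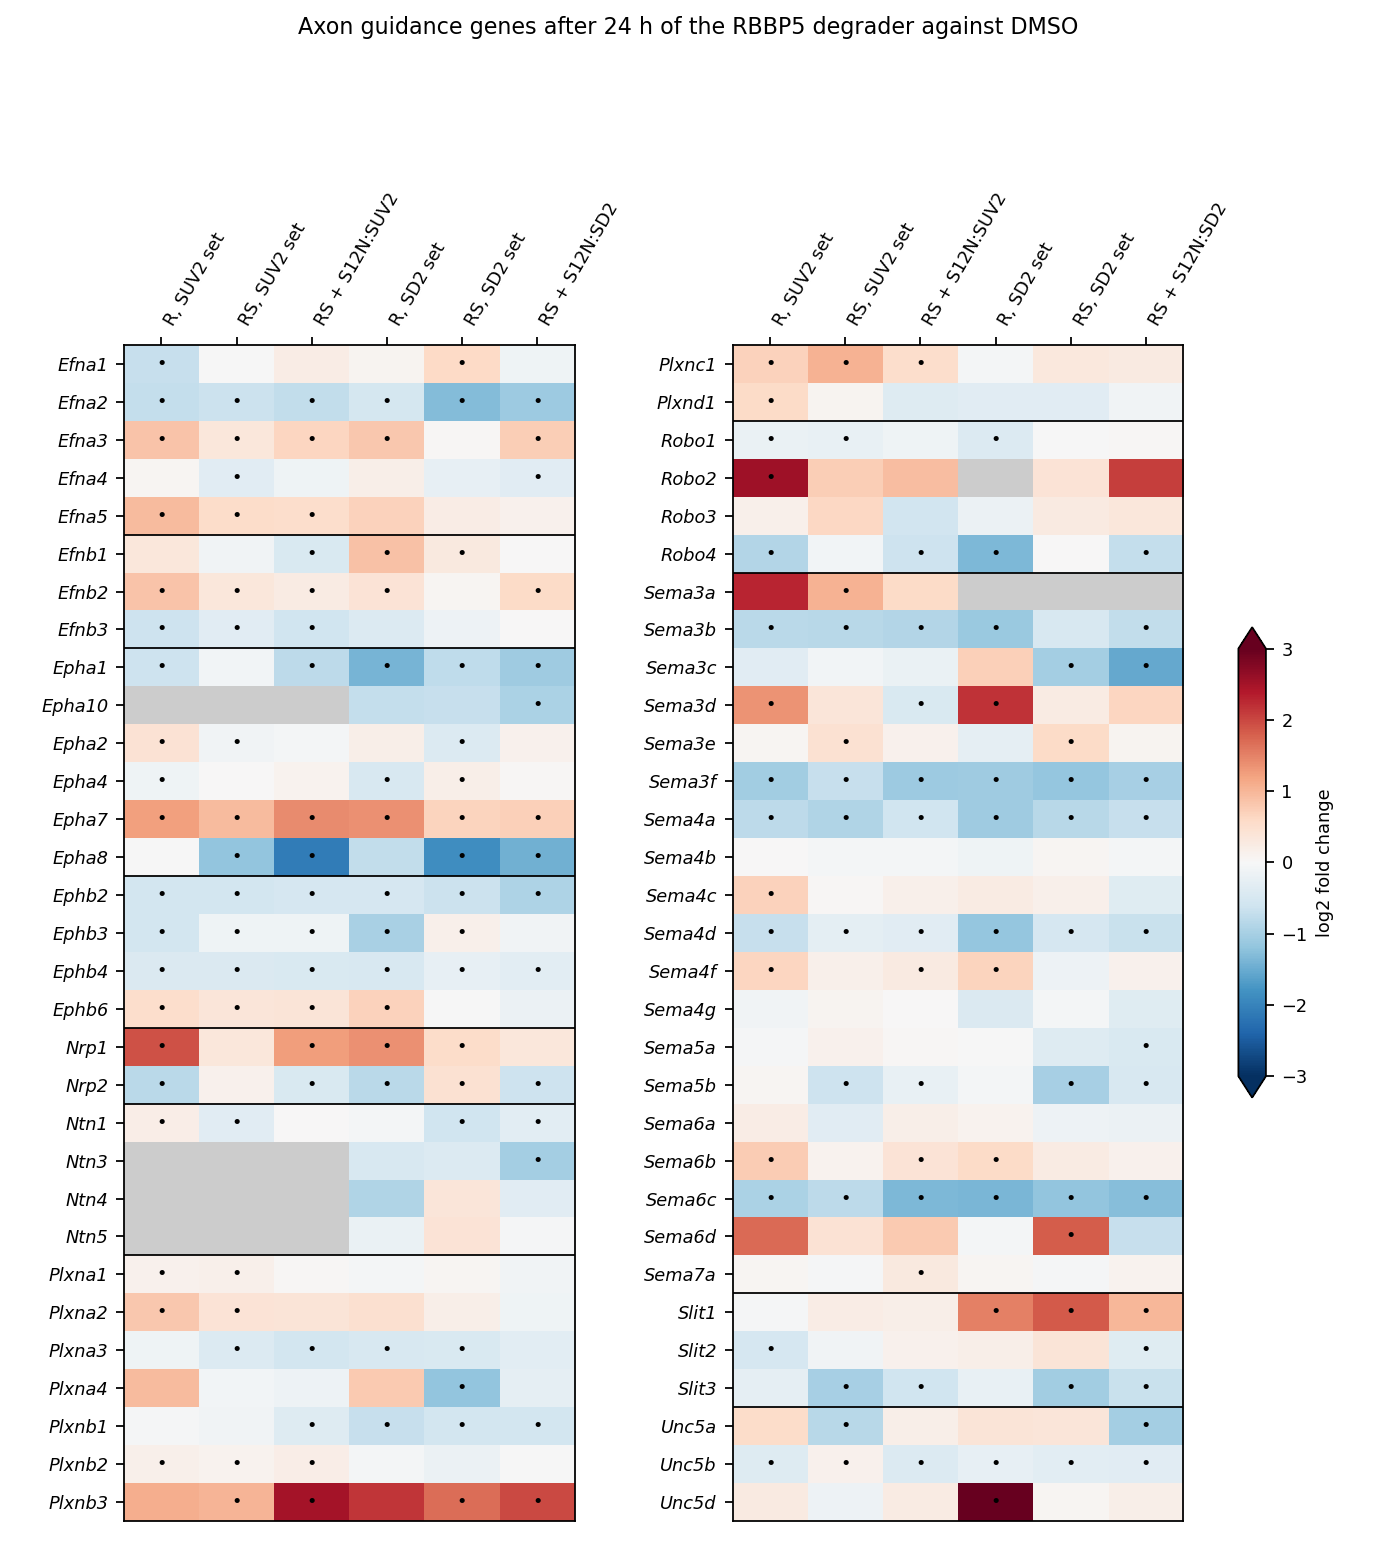
Log2 fold change (colour, from -3 to 3) of each tested axon guidance gene (rows, by family) after 24 h of the RBBP5 degrader against DMSO in R, RS and RS with a fusion, in the SUV2 set and the SD2 set (columns). A dot marks an adjusted p under 0.05 and grey a gene not tested; Epha7 is red and Efna2, Ephb2, Ephb4, Sema3f, Sema4a, Sema4d and Sema6c are blue in all 6 columns.

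Whether the degrader acted differently in RS and R was tested as a difference of effects. In the SUV2 set it passed for 18 of 58 genes (19.6% of all genes called, 10.7% up and 8.83% down) and in the SD2 set for 16 of 61 (12.1%, 5.19% up and 6.92% down; 20 without replicate 3 of the R degrader group). Nrp2 fell in R from 129.0, 128.0 and 135.7 to 71.2, 73.8 and 79 CPM in the SUV2 set, while in RS it was at 23.8, 26.7 and 28 with DMSO and 30, 28.8 and 27 with the degrader, a difference of 0.94 ± 0.07, adjusted p = 1.46e-11. In the SD2 set it fell in R from 77.3, 79.6 and 70.6 to 45.6, 43.4 and 39.5 CPM and rose in RS from 16.8, 15.9 and 15.2 to 21.3, 23.3 and 21.3 (1.28 ± 0.10, adjusted p = 1.27e-06; 1.23 without replicate 3 of the R degrader group). Robo4 showed the like in both sets. It fell in R from 4.44, 4.9 and 4.05 to 2.69, 2.54 and 2 CPM (SUV2 set, log2 fold change -0.89 ± 0.14, adjusted p = 3.17e-06) and from 8.3, 7.47 and 8.24 to 3.44, 3.68 and 2.11 CPM (SD2 set, -1.34 ± 0.15, adjusted p = 3.19e-06; -1.17 without that replicate). In RS the degrader and DMSO libraries of Robo4 overlapped, and the difference of effects was 0.80 ± 0.16, adjusted p = 0.000394 in the SUV2 set and 1.35 ± 0.19, adjusted p = 0.000228 in the SD2 set (1.18 without that replicate). The effect on Nrp1 was smaller in RS than in R of the SUV2 set, a difference of -1.55 (adjusted p = 0.00103), and that on Epha8 was lower as well (-1.18 ± 0.36, adjusted p = 0.0201; lost without replicate 1 of R with DMSO, adjusted p = 0.0748, or with the degrader, 0.0627). In the SD2 set Plxna4 (-1.96, adjusted p = 0.0106) and Sema3d (-1.91, adjusted p = 0.0201) differed too, on few counts in R. Without replicate 3 of the R degrader group these were -2.06 and -2.10. The Sema3d call was lost with only these groups in the fit (adjusted p = 0.0593) and without replicate 2 of R with DMSO (0.0651) or replicate 1 with the degrader (0.0637).

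With the fusion against without it, the degrader's effect differed for 10 of 58 genes in the SUV2 set (10.7% of all genes called, 5.07% up and 5.65% down) and for 4 of 61 in the SD2 set (2.06%, 0.822% up and 1.24% down). Ntn1 was at 99.4, 101.6 and 104.1 with DMSO and 101.8, 103.6 and 99.8 CPM with the degrader in RS with SUV2, which overlapped, and fell in RS from 63.8, 65.7 and 64.2 to 49.5, 51.9 and 52.2 CPM (0.33 ± 0.05, adjusted p = 1.76e-05). Sema5b fell by less with SUV2 (0.41 ± 0.10, adjusted p = 0.00843), while Epha8 was lower (-0.90 ± 0.29, adjusted p = 0.0458). The Sema5b call was lost without replicate 3 of RS with the degrader (adjusted p = 0.0574). That of Epha8 was lost by DESeq2 (0.165), without a filter (0.0646) and on leaving out any of 8 of the 12 libraries (0.0683 to 0.167). Sema3d fell with SUV2 (-0.45 ± 0.16, adjusted p = 0.0199) and did not pass in RS (0.37 ± 0.16, adjusted p = 0.0605), a difference of -0.82 ± 0.23, adjusted p = 0.0177. This call was lost by DESeq2 (0.108) and without replicate 2 of RS with DMSO (0.0572) or replicate 1 with the degrader (0.059). Sema6d was at 0.628, 1.13 and 1.4 with DMSO and 0.742, 0.398 and 0.76 CPM with the degrader in RS with SD2, and its rise in RS was not seen there (-2.52 ± 0.41, adjusted p = 0.00291). Nrp2 fell with SD2 from 16.2, 16.9 and 15.9 to 11.1, 9.56 and 11 CPM, against its rise in RS (-1.09 ± 0.11, adjusted p = 0.000223). Epha2 fell in RS from 311.0, 314.4 and 305.3 to 229.9, 231.5 and 238.7 CPM and was at 174.4, 173.1 and 172.7 against 187.1, 191.1 and 191.3 with SD2, which did not pass on its own (0.13 ± 0.08, adjusted p = 0.2), a difference of 0.54 ± 0.11, adjusted p = 0.0151. The Epha2 call was lost without replicate 3 of SD2 with DMSO (adjusted p = 0.0644) or replicate 1 of RS with the degrader (0.0698). With only these groups in the fit the SD2 count was 13.

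In the degron each time with auxin was compared with the 48 h DMSO control. Time and sequencing group cannot be told apart at 24 h and 48 h, so the added calls after 8 h cannot be read as an order of events. No gene of the 49 tested passed at 2 h or 4 h (0% and 0.00713% of all genes called). At each of these times 1 gene was under an unadjusted p of 0.05, a threshold at which no share of all genes was taken. DESeq2 gave none at 2 h and Nrp2 alone at 4 h. At 8 h Nrp2 passed and no other gene did (0.0357% of all genes called, 0.0285% up and 0.00713% down). At 24 h 12 rose and 2 fell (34.3%, 16.4% up and 17.9% down), or 23 passed without replicate 3 of that group, and at 48 h 25 rose and 2 fell (44%, 20.2% up and 23.8% down). The median log2 fold change of the tested genes went from 0.16 at 8 h to 0.30 at 24 h and 0.77 at 48 h, against -0.01, -0.00 and 0.00 over all genes.

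Nrp2 was at 19.3, 19.2 and 17 CPM with DMSO, 17.8, 17.4 and 14.5 at 2 h, 11.8, 11.9 and 12.2 at 4 h, 11.4, 10.4 and 9.52 at 8 h, 5.05, 6.36 and 6.27 at 24 h and 5.96, 6.28 and 7.78 at 48 h. From 4 h on every auxin library lay below every DMSO library. Its log2 fold change was -0.83 ± 0.13, adjusted p = 0.0387 at 8 h, -1.65 ± 0.15, adjusted p = 5.84e-06 at 24 h (-1.72 without replicate 3) and -1.47 ± 0.14, adjusted p = 6.46e-07 at 48 h. The 8 h call was lost with a replicate block (adjusted p = 0.104), without a filter on low counts (0.0606) and without any one library, while its size stayed between -0.77 and -0.90.

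At 24 h Ephb2, an EphB receptor, was at 4.8, 4.4 and 6.66 CPM against 2.44, 1.67 and 2.05 with DMSO (1.40 ± 0.23, adjusted p = 0.000368; 1.17 without replicate 3). Efnb1 was at 3.2, 4.56 and 6.81 CPM against 2.18, 1.78 and 1.23 (1.53 ± 0.28, adjusted p = 0.000936; 1.14 without replicate 3). Slit3 was at 1.97, 1.47 and 6.5 CPM against 1.03, 1 and 0.704 (1.97 ± 0.49, adjusted p = 0.00578), where replicate 3 was far above the rest, and without it the value was 0.93 with an adjusted p of 0.0934. Efna4, a lipid-anchored ephrin, was at 15.3, 18.9 and 16 CPM against 22.4, 22.5 and 24.2 (-0.47 ± 0.13, adjusted p = 0.0134; -0.45 without replicate 3). Its call was lost with DESeq2's size factors in edgeR (adjusted p = 0.0503) and without replicate 1 of the 24 h group (0.0558). All auxin libraries stood on one side of all DMSO libraries for these genes. With only the 2 groups in the fit Nrp2 was the sole gene to pass at 24 h. Of 10 tested primitive endoderm markers 6 rose at 24 h too, with a summed level of 66.3 to 215.2 CPM, and their part was not tested.

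By family, 4 of 5 ephrin-A, 3 of 3 ephrin-B, 1 of 5 EphA and 3 of 5 EphB genes rose at 48 h, where 20.2% of all genes rose. So did 6 of 15 semaphorins, 5 of 7 plexins, 2 of 3 netrins and 1 of 2 Slits, and no tested Robo, Unc5 or neuropilin gene did. Sema6b was at 14.8, 12.7 and 16 CPM against 2.06, 2.22 and 1.64 with DMSO (2.88 ± 0.33, adjusted p = 4.07e-06). Ephb2 was at 12.4, 12.7 and 14 CPM against 2.44, 1.67 and 2.05 (2.67 ± 0.21, adjusted p = 1.35e-07). Ntn3, a netrin, was at 1.84, 3.28 and 1.69 CPM against 0.193, 0.333 and 0.411 (log2 fold change 2.85 (95% counting interval 2.04 to 3.72), adjusted p = 0.000634). Auxin and DMSO libraries were far apart for all of these. Ephb4 fell from 81.3, 77.2 and 62 to 43.1, 46.1 and 43.9 CPM (-0.73 ± 0.20, adjusted p = 0.00747), the direction it had in the knockouts. Ntn1 rose to 25.1, 23.9 and 28 CPM from 11.6, 10.1 and 8.1 (1.37 ± 0.31, adjusted p = 0.00215), opposite to the knockouts; it is named after its values were seen. The 27 calls became 19 without replicate 3 of DMSO, the lowest count. Of 10 tested primitive endoderm markers 6 rose at 48 h, with a summed level of 148.4 to 160.9 CPM against 70.8 to 102.7 with DMSO, where Foxa2 was at 0, and their part was not tested. Of 4 tested neural progenitor markers 3 rose at 48 h as well. Mesenchyme markers summed to 14.2 to 15.5 CPM at 48 h and 2.38 to 3 with DMSO, where Col3a1, Prrx1 and Postn were at 0. Endothelium markers summed to 91.9 to 95 CPM at 48 h against 156.3 to 168.0 with DMSO. Neuron markers overlapped (379.0 to 398.7 against 349.8 to 445.1 CPM). The part of these lists was not tested.

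**Figure D5:**
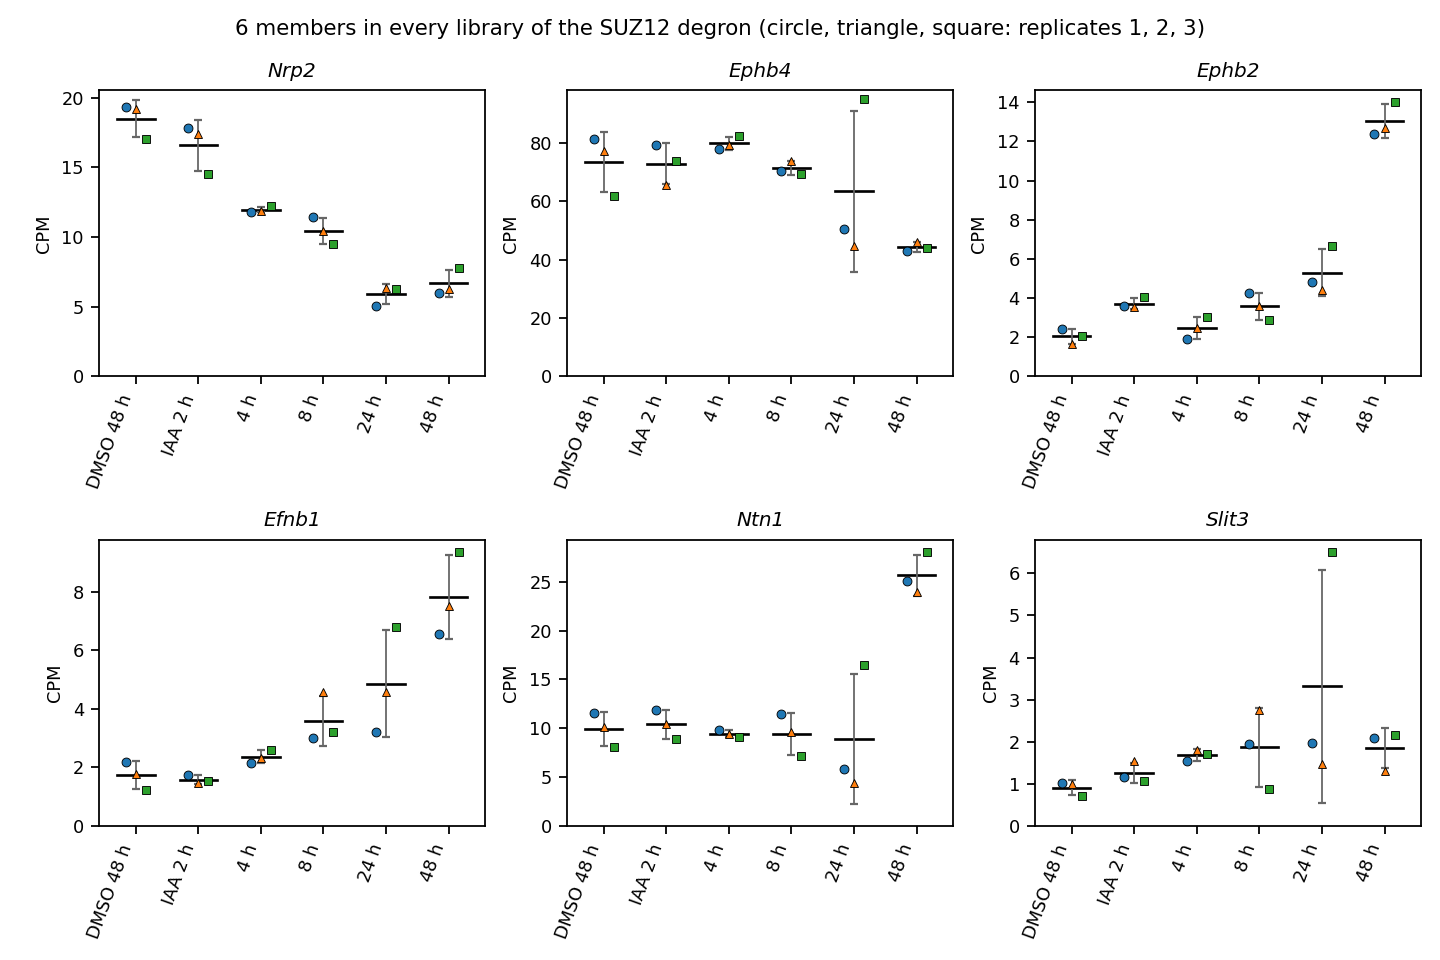
CPM (vertical axis, linear, from 0) of Nrp2, Ephb4, Ephb2, Efnb1, Ntn1 and Slit3 in every degron library, by time with auxin, where circle, triangle and square are replicates 1, 2 and 3, the line is the mean and the whisker the SD. Nrp2 is lower from 4 h on, Ephb2, Efnb1 and Ntn1 are highest at 48 h, and replicate 3 at 24 h (square) is apart for Ephb4, Ntn1 and Slit3.

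With the HP1a chromodomain fused to S12N 7 of 57 genes rose against S12N and none fell (6.97% of all genes called, 4.26% up and 2.72% down). By DESeq2 7 genes passed too. Under an unadjusted p of 0.05 stood 13 genes in either direction, and no share of all genes was taken at that threshold. Robo1, a Slit receptor, was at 87.4, 86 and 62.1 CPM with the fusion and 56, 58.6 and 58.3 with S12N (0.44 ± 0.09, adjusted p = 0.00106). Plxna1 was at 262.5, 265.4 and 225.7 against 212.0, 209.6 and 204.9 CPM (0.27 ± 0.05, adjusted p = 0.00106), and Sema4b at 116.8, 109.7 and 98.9 against 84.6, 98.7 and 90 CPM (0.26 ± 0.07, adjusted p = 0.0137). The fusion libraries were higher in each, by little, and replicate 3 of the fusion was the lowest of its group. The Sema4b call was lost without replicate 1 or 2 of the fusion or replicate 1 or 3 of S12N (adjusted p = 0.0501 to 0.152). The count of 7 became 2 and 3 without replicates 1 and 2 of the fusion and 4 without replicate 1 of S12N. The summed primitive endoderm markers were at 2044.8 to 3361.7 CPM with the fusion and 1561.0 to 1730.0 in S12N, where 10 of the 12 rose and none was at 0, and their part was not tested.

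Genes of the same pathways outside the families were read from 2 further lists, chosen with earlier results of these data known. Of 16 other guidance ligands and receptors, 9 of 15 tested rose and 1 fell in the panel's knockout, 10 of 11 rose and 1 fell in the SUV2 set, and 9 of 14 and 9 of 12 rose with none lower in the SD2 and the HP1 set. Over all genes 23.8% rose and 23.2% fell in the panel, and 36.9% and 34.9% in the SUV2 set. In the SD2 set these shares were 31.8% and 27.2%, and in the HP1 set 22.2% and 19.6%. Rgma, L1cam, Flrt1, Flrt2 and Flrt3 rose in all 4, 5 of the 11 tested in each, where 12.4% of all genes did. Flrt2, an adhesion ligand of Unc5 receptors, was at a mean of 7.18 CPM in the knockout and 1.69 in wild type of the panel (log2 fold change 2.11 ± 0.27, adjusted p = 6.41e-07). L1cam, an axonal adhesion molecule, was at 10.8 and 2.46 CPM (2.15 ± 0.16, adjusted p = 3.78e-11). Of 35 intracellular effectors 12 rose and 8 fell in the panel's knockout and 14 of 33 tested rose and 5 fell in the HP1 set. Farp1, Mical2, Kalrn and Dpysl5 rose in all 4 knockouts, 4 of 33 tested in each, and Enah and Srgap2 fell, 2 of 33. Both are near or below the shares of all genes, 12.4% and 9.55%. Farp1, a partner of A-type plexins, went from a mean of 9.36 CPM in wild type to 27.5 in the panel's knockout (1.56 ± 0.17, adjusted p = 3.41e-08), and Enah, which extends actin filaments, from 991.0 to 876.7 CPM (-0.18 ± 0.06, adjusted p = 0.0213). On return of SUZ12 10 of the other ligands and receptors fell in the panel and 3 in the HP1 set, with none higher. Over all genes 24.2% and 14.1% fell there.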

How the data were processed

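RNA-seq gene counts of 93 libraries in 31 groups were used; 12 further libraries with a KDM4 inhibitor were not analysed here. The deposited values are raw counts per gene that the authors made, per the submitters' processing notes, with Trim Galore 0.4.5, STAR 2.4 and HTSeq 0.9.1 (panel and SUV2 set), Trim Galore 0.6.7, HISAT2 2.2.1 and featureCounts 2.0.8 (SD2 set), or Trimmomatic and HISAT2 (degron and HP1 set). In the panel's table several columns carry other names than the samples. They were matched as E14JU to wild type, JUS2_59 to the knockout, VEFS to S12N, VSET to S12N:SD2 and DVFullH2 to S12N:SUV2, which is an inference from the names.

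Each dataset was fitted alone in R 4.3.3 with edgeR 4.0.16: genes with low counts were left out by filterByExpr, counts were scaled by TMM, and group means were compared by the quasi-likelihood F test over 14016 to 16230 genes, with Benjamini-Hochberg adjustment per comparison. Totals differ between datasets and no test was made across them. An SE is the log2 fold change over the root of F, and a group under 30 counts has a 95% counting interval in its place, which covers counting error only. Alternatives were DESeq2 1.42.0, its size factors in edgeR, no filter, only the compared groups, a block for replicate number, and each library left out. The script was tested on simulated data with 200 changed genes.

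Replicates are called biological in the labels of 4 datasets and not in those of the SD2 set, and p-values measure the spread between these samples. Only in the knockout and wild type of the panel did every pair of same-numbered libraries deviate together with a correlation over 0.1 (0.26 to 0.34). A block left the count there at 33. Single pairs reached 0.49 between dead SD2 and S12N and 0.47 between 2 h of auxin and DMSO.

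Members and gene lists were chosen with earlier results of these data known. Genes were named by this rule: in each comparison up to 3 per direction with the largest change among those called, at a mean of at least 1 CPM and with groups that do not overlap, and up to 2 per direction for differences of effects. Where a gene was named by this rule, the lack of overlap between its groups follows from the rule.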

Additional observations from a re-analysis of the deposited data

Results flagged for a closer look

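Each gene here passed the test of a difference between the effects of the same contrast in different lines (edgeR's quasi-likelihood F test, adjusted p under 0.05). The differences of log2 fold changes are listed as values, and what underlies them was not tested.

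Between active and dead SUV2 against active and dead SD2, the difference was 1.49 for Sema3d, 1.17 for Epha1, -1.87 for Efna1 and -1.53 for Sema6b. For the RBBP5 degrader in RS against R it was 0.94 for Nrp2, 0.80 for Robo4, -1.55 for Nrp1 and -1.18 for Epha8 in the SUV2 set. In the SD2 set it was 1.35 for Robo4, 1.28 for Nrp2, -1.96 for Plxna4 and -1.91 for Sema3d, and the last pair had few counts in R. The degrader's effect on Nrp2 and on Robo4 was thus shifted upward in RS relative to R in both sets, which have separate libraries but an RS line of the same name. These are differences of effects, not of levels.

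For the degrader with the fusion against without it, the difference was 0.41 for Sema5b, 0.33 for Ntn1, -0.90 for Epha8 and -0.82 for Sema3d in the SUV2 set. In the SD2 set it was 0.54 for Epha2, -2.52 for Sema6d and -1.09 for Nrp2.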

How the results depend on the processing

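Of the 170 counts of called genes under settings that keep all libraries, 161 stayed within 1.5 times the reported count and 9 did not. With only the compared groups in the fit, S12N against the knockout in the panel gave 1 gene, dead SD2 against S12N gave 2, the degrader in R of the SD2 set gave 18, its difference with SD2 gave 13 and 24 h of auxin gave 1. DESeq2 gave 1 gene at 4 h of auxin, and at 8 h neither the fit without a filter nor the replicate block called a gene (0 each). Without a filter, S12N against the knockout in the HP1 set gave 1.

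With one library left out, 204 of 234 counts stayed within 1.5 times. The others came from S12N against the knockout in the panel (2 to 5 genes), dead SUV2 against S12N (6 to 15), active against dead SD2 (6 to 13), dead SD2 against S12N (3 to 8), 8 h (0 to 0) and 24 h of auxin (8 to 23, with 8 without DMSO replicate 2 or 3), full-length SUZ12 against wild type (7 to 11), S12N against the knockout in the HP1 set (0 to 0) and the HP1a fusion (2 to 9). Of 807 values of named genes 784 kept their call under the settings that keep all libraries and 23 lost it; with a library left out 987 of 1086 kept it and 99 lost it. No named gene reversed its direction in these fits. The causes were not tested. The replicate block moved no other count by over 1.5 times. Genes of a few counts per group, such as Robo3 and Sema3d, limit what depth can show.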
